A study of Mus musculus with 4 samples.

Results

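CD45-negative cells with little collagen RNA were examined in MC38b tumours by droplet single-cell RNA sequencing. MC38b is labelled only as a mouse tumour line engrafted into mice. A cell barcode was a member when it had at least 10000 unique molecular identifiers (UMIs) and under 15% mitochondrial UMIs. It could hold at most 1 UMI of Ptprc (the gene of CD45), none of Cd3d, Cd3e and Cd3g, at most 3 of C1qa, C1qb and C1qc, and at most 1 of Pecam1. Col1a1, Col1a2 and Col3a1 together had to stay under 1000 raw CPM, which are UMIs per 1000000 UMIs of the same barcodes with no further normalisation. This left 583 of 37588 deposited barcodes. They were 232 barcodes from the tumours given anti-PD-1 plus anti-TL1A (the combination), 157 from those given anti-PD-1, and 119 and 75 from 2 PBS libraries (PBS 1 and PBS 2). The remaining 401 CD45-negative barcodes, at or above 1000 raw CPM, are called collagen-high.

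Collection followed the second dose of antibody or saline by 24 h. CD45-positive CD3-positive, CD45-positive CD3-negative and double-negative cells were sorted and remixed at 9, 9 and 2 parts, so that the share of CD45-negative cells in a library was set by the remix. The labels give 2 animals for saline and 4 for the treated group, pooled before the sort, and do not say which animals each library holds. Mouse strain, sex and age are not given in the sources used here. With 1 library for each treatment, spread could be estimated from the PBS pair alone, where it could be technical in origin. The fit gave most genes a spread shared over genes in place of their own, so that a gene with unlike PBS values can still have a small p, and each treated library was assumed to vary alike.

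The counts did not bear out the label of tumour cells marked by keratins. Krt8 and Krt18, keratins of simple epithelia, had 3, 1, 2 and 0 UMIs in all member barcodes of the combination, anti-PD-1, PBS 1 and PBS 2 libraries. No member barcode held 2 or more UMIs of Krt8 and Krt18 together. Of other keratins, Krt10, a keratin of differentiating epidermis named after its value was seen, was at 21.2, 7.80, 14.7 and 15.2 raw CPM in members, against 19.7, 5.13, 17.0 and 14.3 in collagen-high barcodes of the same libraries. Cryab, a small heat shock protein and the remaining marker, was at 71.8, 31.0, 14.2 and 30.6 CPM (the same measure in the summed members of each library after TMM normalisation). The members instead carried Vim, an intermediate filament of mesenchymal cells, at 2334 to 2718 raw CPM. Dcn, a proteoglycan of connective tissue, was at 629 to 915 raw CPM. The 8 fibroblast markers of the list summed to 1251, 1009, 1295 and 1101 raw CPM, and the 5 that are not collagens of the rule to 968, 729.98, 907 and 687. Of the latter sums Dcn alone made 915, 683, 849 and 629 raw CPM. Lum had no UMI in PBS 1 members and Postn none in PBS 2 members, so the sums rest mainly on Dcn and Col3a1. Among the most abundant RNAs were those of S100a6, a calcium-binding protein, at 5356 to 7593 raw CPM, and Lgals1, a galectin, at 5356 to 7598. The members are therefore called by their rule, CD45-negative collagen-low cells.

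The collagen values ran across the boundary without a gap, and they chose the members. The sum of the 3 collagens had a median of 212, 173, 289 and 389 raw CPM in the combination, anti-PD-1, PBS 1 and PBS 2 members. Col3a1, a fibrillar collagen, was at 277 to 412 raw CPM in the summed members, and Col1a1 and Col1a2 were each at 1.38 or less. Within 20% below the threshold lay 10, 9, 11 and 8 members, and within 25% above it 15, 11, 15 and 7 barcodes were left out. Members were 68.2% of the CD45-negative barcodes in the combination library (95% exact Clopper-Pearson interval 63.0 to 73.2) and 68.3% in the anti-PD-1 library (61.8 to 74.2). They were 42.7% in PBS 1 (36.8 to 48.7) and 55.6% in PBS 2 (46.8 to 64.1). Both treated libraries were above both PBS libraries, the intervals of both treated libraries overlapped that of PBS 2, those of PBS overlapped each other, and 1 library per treatment gives no test. Intervals cover counting error only. Fewer cells and less RNA per cell cannot be told apart in any summed value.

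**Figure D1:**
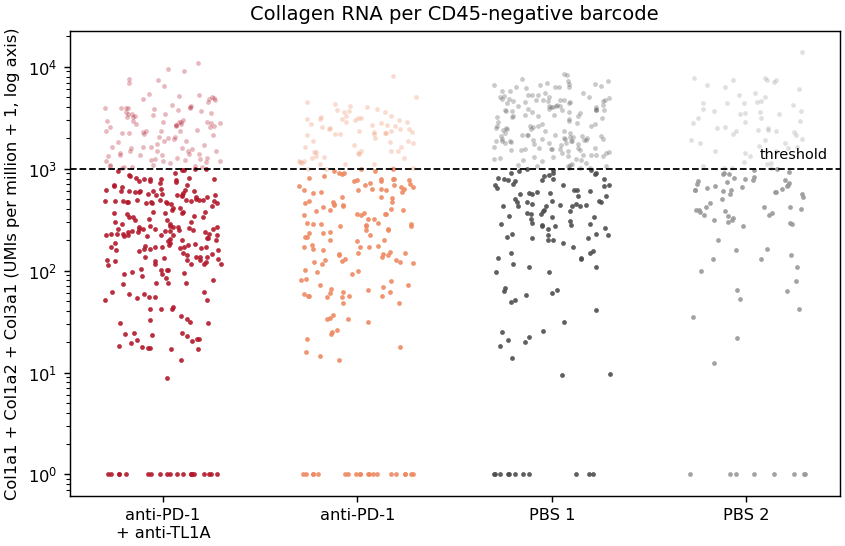
Summed UMIs of Col1a1, Col1a2 and Col3a1 in raw CPM (plus 1, log axis) in each CD45-negative barcode of the 4 libraries, 1 point per barcode; dark points are members, pale points are collagen-high, and the dashed line is the threshold of 1000 raw CPM. Values run on both sides of the threshold, and 20, 20, 11 and 8 members of the combination, anti-PD-1, PBS 1 and PBS 2 libraries had no collagen UMI.

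Libraries held 78648222 to 142600208 UMIs. Members had a median of 62436 UMIs in the combination, 49531 in anti-PD-1, 78129 in PBS 1 and 84286 in PBS 2. Their summed UMIs were 15127636, 8074170, 9166271 and 5799946. Of the PBS members, 106 of 119 and 65 of 75 had a barcode that also occurred in another library. In the anti-PD-1 library those barcodes carried a median of 2.37% of the member's UMIs (both PBS libraries), at most 3731 UMIs, and no 2 members of different libraries shared a barcode. Of the anti-PD-1 members 37, and of the combination members 1, had such a barcode. Leaving these barcodes out kept 13 and 10 PBS members with 202110 and 170265 UMIs. In the combination 14 genes were then called, all lower and 1 of them among the 140 called with all barcodes. They were Ccr7 (log2 fold change -7.36), Cd83, Cd86, Srgn, Cytip, Itga4, Crip1, Plcl1, Plxnc1, Myo1g, Basp1, Samsn1, Rftn1 and Tmsb4x. With all barcodes, 27 of 31 Ccr7 UMIs in PBS 1 members and 47 of 50 in PBS 2 members came from 1 barcode each. Whether such barcodes set the 14 calls, or other values of this setting, was not tested. None was called in anti-PD-1 (961 at an unadjusted p under 0.05, edgeR). Without shared barcodes Gbp2 had log2 fold changes of 1.49 and 1.20 (adjusted p = 0.37 and 0.62) in the combination and anti-PD-1. Those of Igtp were 3.69 and 3.48 (adjusted p = 0.25 and 0.41).

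A few members carried much immune RNA. In 3, 4, 2 and 1 members of the combination, anti-PD-1, PBS 1 and PBS 2 libraries, immune marker UMIs exceeded 3000 raw CPM. The markers summed for this included Ccr7 and the MHC class II genes Cd74, H2-Aa, H2-Ab1 and H2-Eb1. One anti-PD-1 member held 160 UMIs of Ccl22, a chemokine of mature dendritic cells, 43 of Ccr7 and 143 of Cd74, with none of Dcn. The defining T cell genes Cd3d, Cd3e and Cd3g were at 0 by rule. The rule also capped C1qa, C1qb and C1qc among the macrophage markers and Pecam1 among the endothelial ones. The sums that follow were therefore in part set by the rule. Summed marker levels were low for T cells (6.48, 5.33, 3.82 and 4.31 raw CPM in the combination, anti-PD-1, PBS 1 and PBS 2) and for 12 macrophage and monocyte markers (38.1, 34.4, 28.0 and 26.7). Endothelial markers summed to 7.80, 5.45, 7.09 and 11.03 raw CPM, with Kdr at 0 in each library. Results for MHC class II genes, Bcl2a1b, Crip1 and Ccl22 are given with and without the 10 immune-rich barcodes.

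The comparisons with PBS ask how the tumour's non-immune cells changed after checkpoint blockade. PD-1 is an inhibitory receptor of T cells, and its ligand PD-L1 (gene Cd274) is made by many tumour and stromal cells. TL1A (Tnfsf15) is a TNF-family cytokine whose receptor DR3 (Tnfrsf25) sits mainly on lymphocytes. T and NK cells release interferon-gamma, which signals through Ifngr1 and Ifngr2 and JAK kinases. Its targets include guanylate-binding proteins and immunity-related GTPases, which attack intracellular pathogens, the MHC class I pathway and Cd274. In the summed members Pdcd1, the gene of PD-1, had 3 UMIs in the combination and 1 in anti-PD-1, against 0 and 3 in PBS. Tnfsf15 had 1 UMI in all (anti-PD-1), and Tnfrsf25 had 1 (combination).

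Interferon-gamma-inducible genes were among those higher in treated than in PBS members. In the combination over PBS, 140 of 13195 genes tested passed an adjusted p of 0.05 in edgeR's quasi-likelihood test (1.06%), 80 of them higher (0.606%) and 60 lower (0.455%). In anti-PD-1 over PBS 145 passed (1.1%), 82 higher (0.621%) and 63 lower (0.477%). These shares over all genes are the background for every count of called list members against PBS. DESeq2 called 8 and 7. Its calls for the combination included Gbp2, Gbp3, Igtp, Iigp1 and Nos2, known interferon-gamma targets, Klf2, a zinc-finger transcription factor, and AA467197. For anti-PD-1 they were Gbp2, Igtp and AA467197, and also Ifitm3, Lgals3, Tmsb4x and Gm26917, named after their values were seen. Gm26917 had the smallest adjusted p of the anti-PD-1 calls (6.0e-06, DESeq2). The anti-PD-1 comparison shares its PBS libraries with the combination comparison.

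Of 9 guanylate-binding proteins tested, 7 rose in the combination and 7 in anti-PD-1 (backgrounds 0.606% and 0.621%). Their median log2 fold change was 1.26 in the combination and 1.01 in anti-PD-1, against -0.01 and -0.03 over all genes. With no collagen threshold 2 and 1 of the 9 passed, among 136 and 213 genes called over all, and the anti-PD-1 call of Gbp2 was lost (0.49, adjusted p = 0.12, edgeR). Gbp2, the most abundant of them in the members, was at 483 CPM in the combination and 388 CPM in anti-PD-1, against 191 and 195 CPM in the PBS libraries. Both treated libraries were above both PBS libraries, whose 2 values lay close together. The log2 fold change of Gbp2 was 1.32 ± 0.23 (SE; adjusted p = 3.1e-06, edgeR) in the combination and 1.01 ± 0.23 (adjusted p = 0.0022) in anti-PD-1. Gbp3 was at 106 CPM in the combination and 79.5 in anti-PD-1, against 39.0 and 36.4 in PBS. Gbp5, which promotes inflammasome assembly in macrophages, was at 25.6 and 23.6 CPM, against 10.4 and 8.09 in PBS. Of the others, named after their values were seen except Gbp10, Gbp4, Gbp6 and Gbp7 also rose in both, Gbp10 passed only the combination's test and Gbp8 only that of anti-PD-1, and Gbp9 passed neither. Members of this family are near-identical in places, so how reads were split among them is uncertain.

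Of 9 immunity-related GTPases tested, 7 rose in the combination and 4 in anti-PD-1 (backgrounds 0.606% and 0.621%), with median log2 fold changes of 1.18 and 0.50. With no collagen threshold 5 and 1 passed, among 136 and 213 genes called over all. Igtp (Irgm3), which acts at vacuoles holding pathogens, was at 87.2 CPM in the combination and 80.1 in anti-PD-1, against 33.4 and 34.6 in PBS. Its log2 fold changes were 1.36 ± 0.18 (adjusted p = 4.1e-11, edgeR) and 1.24 ± 0.18 (adjusted p = 2.4e-08). Both treated libraries were above both PBS libraries. Iigp1 (Irga6) was at 218 and 172 CPM, against 93.1 and 96.6 in PBS. F830016B08Rik, a further GTPase of this family, was at 24.6 and 19.4 CPM, against 4.91 and 9.22. Tgtp1, which has a near-identical copy, passed only in the combination: 9.61 CPM there and 5.15 in anti-PD-1, against 4.35 and 3.40 in PBS. Irgm1, Irgm2 and Gm4951, named after their values were seen, were the remaining calls in the combination, of which Irgm2 passed in anti-PD-1 too.

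**Figure D2:**
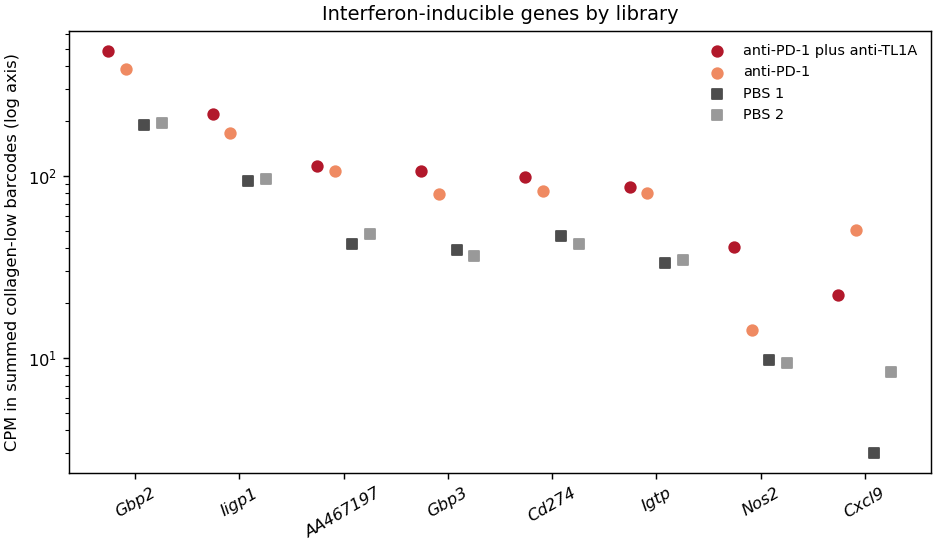
CPM (TMM-normalised, log axis) of 8 interferon-inducible genes in the summed members of each library, 1 point per library; circles are the treated libraries and squares the PBS libraries. For every gene shown, both treated values are above both PBS values, with Gbp2 at 483 and 388 CPM against 191 and 195.

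The promoters of Gbp2 and Igtp are shown because both genes were called by both tools in both comparisons. They are RefSeq sequences of GRCm38.p6, 250 bases before to 50 after the start site, on the plus strand at chr3:142620413-142620712 (Gbp2) and chr11:58199306-58199605 (Igtp). Capitals mark GAAA and GAAA with any 2 bases between them, the core of an interferon-stimulated response element (ISRE), and TTCNNNGAA, the gamma-activated site, on either strand.
Gbp2: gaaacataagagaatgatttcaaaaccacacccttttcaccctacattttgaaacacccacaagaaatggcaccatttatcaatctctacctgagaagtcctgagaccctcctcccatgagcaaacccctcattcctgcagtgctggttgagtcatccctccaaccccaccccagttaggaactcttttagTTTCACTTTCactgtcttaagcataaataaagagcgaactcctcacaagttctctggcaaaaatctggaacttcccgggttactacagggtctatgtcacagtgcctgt
Igtp: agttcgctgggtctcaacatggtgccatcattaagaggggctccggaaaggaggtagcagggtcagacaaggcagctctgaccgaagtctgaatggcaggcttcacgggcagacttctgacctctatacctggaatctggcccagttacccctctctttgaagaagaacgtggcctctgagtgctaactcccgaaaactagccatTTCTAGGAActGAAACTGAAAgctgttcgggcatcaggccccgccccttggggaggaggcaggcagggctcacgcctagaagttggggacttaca
Of 26 genes of the interferon, MHC class I and co-inhibitory ligand lists that rose in the combination, 15 had a promoter in the table. The ISRE core was found in 9 of those 15 (60.0%), against 3.99% of 27025 genes with a promoter and 3.80% of the 9978 tested genes with one. All of these 9 but Stat2 were guanylate-binding proteins or immunity-related GTPases. As related genes they are not independent of each other. TTCNNNGAA was found in 5 (33.3%), against 9.55%. All 5 also held the ISRE core, so that either motif was found in 9 of the 15, against 12.9% of all genes. The window of Cd274 held no such match. These genes were chosen by their values, and a match describes letters, not a bound site.

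Among other interferon-gamma responders, some rose. Of 21 tested, 7 rose in the combination and 5 in anti-PD-1 (backgrounds 0.606% and 0.621%), with medians of 0.65 and 0.56. Batf2, a transcription factor, was at 9.09 CPM in the combination and 12.3 in anti-PD-1, against 3.01 and 5.34 in PBS. Nlrc5, the activator of MHC class I transcription, passed only in the combination, at 128 CPM and 117 in anti-PD-1, against 68.1 and 91.4. Zbp1, a sensor of Z-form nucleic acid, was at 98.5 and 107 CPM, against 59.4 and 46.3. Irf1 was at 166 and 130 CPM, against 112 and 119, and did not pass in either comparison. Cxcl10, a T cell attractant, was at 297 and 269 CPM, against 196 and 286, with overlapping groups.

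Cd274 encodes the ligand that anti-PD-1 keeps from its receptor, and rose in both treated libraries. It lies on chromosome 19 (29367455 to 29388095, plus strand, GENCODE M21 on GRCm38). It was at 97.9 CPM in the combination and 83 in anti-PD-1, against 46.6 and 42.4 in PBS. The log2 fold changes were 1.14 ± 0.17 (adjusted p = 1.1e-07, edgeR) and 0.90 ± 0.18 (adjusted p = 0.00025). With each barcode thinned to 10000 UMIs, a Cd274 UMI was found in 41.4% of combination members (exact 95% interval 35.0 to 48.0) and 36.9% of anti-PD-1 members (29.4 to 45.0). In PBS 1 it was 30.3% (22.2 to 39.3) and in PBS 2 28.0% (18.2 to 39.6). Without thinning the shares were 81.9%, 66.2%, 72.3% and 72.0%. The combination and anti-PD-1 intervals overlapped those of PBS. DESeq2 did not call Cd274. With shared barcodes left out its log2 fold changes were -0.93 and -1.06, neither past the threshold. Pdcd1lg2, the gene of PD-L2, was at 0.844 and 1.85 CPM, against 0.223 and 1.46, mostly in single barcodes. Of 9 tested members of the co-inhibitory list, Cd274 was the 1 that rose in either comparison.

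The upstream receptors did not pass the test. Ifngr1 was at 78.9 CPM in the combination and 54.8 in anti-PD-1, against 84.1 and 63.9 in PBS. Ifngr2 was at 28.3 and 23 CPM, against 29.0 and 25.2. Jak1, which the receptor uses, was at 122 and 122 CPM, against 135 and 134. Tnfrsf1a, the first TNF receptor, was at 17.6 and 18.2 CPM, against 15.6 and 12.6. None of 14 tested cytokine receptor and signalling genes was called in either comparison, nor any of 21 death receptor and apoptosis genes such as Mcl1 and Bax.

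MHC class I genes were abundant in all libraries. H2-K1, a class I heavy chain, was at 1613 CPM in the combination and 1593 in anti-PD-1, against 1305 and 1085 in PBS, and did not pass. Of 21 genes, 2 rose in the combination and 1 in anti-PD-1 (backgrounds 0.606% and 0.621%). Tap1, the peptide transporter, was at 98.8 and 115 CPM, against 61.1 and 59.7, and passed both. Psmb9, an immunoproteasome subunit, was at 195 and 135 CPM, against 126 and 87.5, and passed in the combination. B2m, the light chain, was at 1198 and 853 CPM, against 847 and 819.5, without a call.

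Of 25 type I interferon genes tested, 3 rose in the combination (background 0.606%), namely Ifi44, Irf9 and Stat2. None rose in anti-PD-1, where Ifit2 fell (log2 fold change -0.997 ± 0.26, background of lower genes 0.477%). Ifit2 was named after its value was seen. Stat2 was at 44.7 and 35.8 CPM, against 26.1 and 28.3. Whether this list differed from the interferon-gamma list was not tested, and the lists share downstream targets.

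Per barcode the spread was wide. The 18 measured guanylate-binding protein and immunity-related GTPase genes summed to a median of 901 raw CPM in the combination members (10th to 90th percentile 134 to 3567). In anti-PD-1 members it was 712 (114 to 2437), in PBS 1 321 (67.6 to 1410) and in PBS 2 410 (119 to 1635). Of combination members 76.7%, and of anti-PD-1 members 73.9%, lay above the pooled PBS median of 349, against 47.1% and 54.7% in the PBS libraries. The distributions overlapped widely in all 4 libraries.

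**Figure D3:**
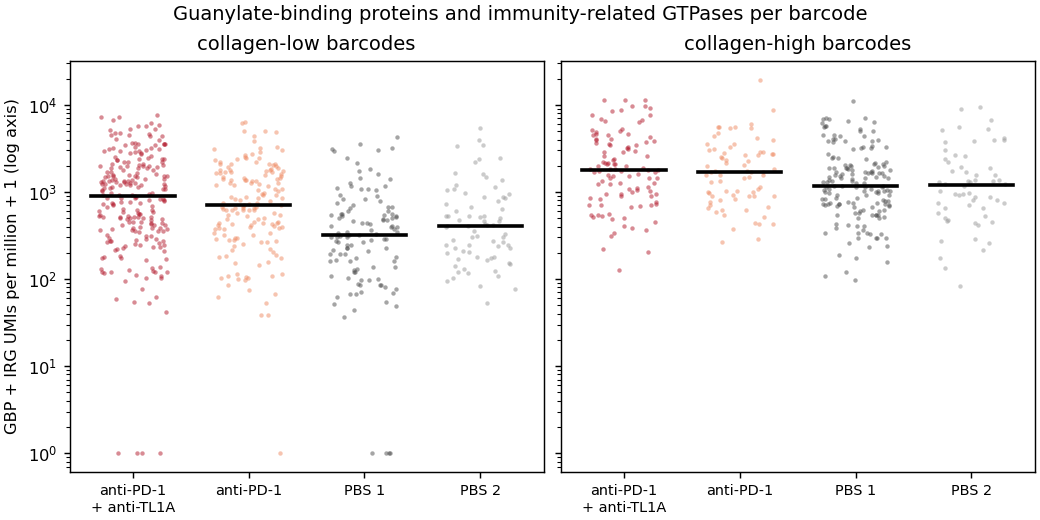
Raw CPM (plus 1, log axis) of guanylate-binding proteins (GBP) and immunity-related GTPases (IRG), summed per barcode, for members (left) and collagen-high barcodes (right) of the 4 libraries; bars are medians. Medians of members are 901 and 712 in the treated libraries, against 321 and 410 in PBS. Collagen-high medians are 1791 and 1677, against 1161 and 1201.

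Collagen-high barcodes had more of these transcripts in every library and also more in the treated ones. In a fit of their own 0.871% of 12287 genes were called in the combination and 1.88% in anti-PD-1. Gbp2 was at 873 raw CPM in the combination and 724 in anti-PD-1, against 510 and 586 in PBS. The response of Gbp2 in members minus that in collagen-high barcodes was 0.61 ± 0.16 (log2, adjusted p = 0.51, edgeR) in the combination and 0.54 ± 0.17 (adjusted p = 0.55) in anti-PD-1. For Gbp3 these differences were 0.83 ± 0.17 (adjusted p = 0.18) and 0.66 ± 0.18 (adjusted p = 0.38), and for Cd274 0.13 ± 0.17 and 0.17 ± 0.18 (adjusted p = 1.0 and 0.97). A larger response of members was therefore not shown. Macrophage-like barcodes with 10 or more C1q UMIs had log2 ratios to the PBS mean of 1.12 and 0.81 for Gbp2 in the combination and anti-PD-1. T cell barcodes had 0.81 and 0.22.

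Nos2, which makes nitric oxide, was higher in the combination. It was at 40.6 CPM there and 14.3 in anti-PD-1, against 9.71 and 9.38 in PBS. The log2 fold change was 2.08 ± 0.22 (adjusted p = 2.9e-16, edgeR) in the combination and 0.58 ± 0.26 (adjusted p = 0.36) in anti-PD-1. The combination library stood above the other three. After thinning, 17.2% of combination members held a Nos2 UMI (12.6 to 22.7) and 13.4% of anti-PD-1 members (8.47 to 19.7), against 7.56% (3.52 to 13.9) and 5.33% (1.47 to 13.1) in PBS. In T cell barcodes of at least 10000 UMIs, given for comparison, the thinned shares were 2.11%, 1.55%, 1.10% and 1.19%, at medians of 14945, 13479.5, 14647 and 15366 UMIs. Nos2 was also higher in the combination in C1q barcodes (81.2 raw CPM, with 44.0 in anti-PD-1, against 11.1 and 16.2) and in T cell barcodes (6.496 and 2.52, against 2.58 and 1.55).

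The result for Cxcl9, a chemokine that draws T cells, depended on the collagen boundary. In members it was at 22.1 CPM in the combination and 50.3 in anti-PD-1, against 3.01 and 8.41 in PBS. The log2 fold changes were 2.03 ± 0.25 (adjusted p = 1.9e-10, edgeR) and 3.21 ± 0.25 (adjusted p = 1.4e-23). In collagen-high barcodes it was at 155 and 112 raw CPM, against 130 and 212, and with all CD45-negative barcodes summed the fold changes turned to -0.39 and -0.18 (adjusted p = 0.33 and 0.61). The response difference between members and collagen-high barcodes was 2.13 ± 0.24 (adjusted p = 0.0027) in the combination and 3.76 ± 0.25 (adjusted p = 1.8e-06) in anti-PD-1. Few barcodes carried it: 34 anti-PD-1 members held its 381 UMIs, 76 of them in 1 barcode. The thinned shares of members with a Cxcl9 UMI (7.33% and 8.92%, against 1.68% and 6.67%) were close to those of T cell barcodes (7.16% and 6.67%, against 4.39% and 5.72%). The share therefore does not set members apart from T cell barcodes, and its source was not tested.

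Several other genes rose in the treated members. Ly6a, the surface protein Sca-1, was at 42.8 CPM in the combination and 35.3 in anti-PD-1, against 9.83 and 18.9, and rose in both. Ly6c1, a related surface protein, was at 11.4 and 8.32 CPM, against 1.45 and 4.85, and its fold change in the combination was 1.23 without PBS 1 and 2.96 without PBS 2. Spp1, the secreted osteopontin, was at 130.3 and 127 CPM, against 55.6 and 84.9, the 1 call among 25 mesenchymal genes in each comparison. Trib3, a pseudokinase of the stress response, was at 48.1 and 47.6 CPM, against 30.3 and 19.7, and rose in both. Ddit3, also of that list and named after its value was seen, rose in anti-PD-1 (0.89 ± 0.18). Prl2c2, a prolactin-family protein, was at 10.5 CPM in the combination and 1.59 in anti-PD-1, against 2.79 and 3.88. Slurp1, a secreted protein, had the largest fold change among the named genes of the combination (3.97 ± 0.45). There 137 of its 199 UMIs came from 1 barcode, and without each library's top barcode it was 2.995 (adjusted p = 0.0054, edgeR).

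Genes lower in the treated members included F3 and Hes1. F3, the tissue factor that starts coagulation, was at 16.9 CPM in the combination and 11.9 in anti-PD-1, against 31.7 and 45.3, with log2 fold changes of -1.18 ± 0.22 (adjusted p = 4.6e-05, edgeR) and -1.68 ± 0.24 (adjusted p = 2.1e-08). Hes1, a Notch target, was at 8.44 and 5.55 CPM, against 13.0 and 19.9, the 1 call among 11 Wnt, Notch and TGF-beta targets. Both genes were below both PBS libraries in each treated library. Cadm2, an adhesion molecule, was at 8.44 and 6.21 CPM, against 23 and 10.5, and its fold change in anti-PD-1 was -0.75 without PBS 1. Cdh18 was at 3.44 and 4.10 CPM, against 13.3 and 7.93, but 62.2% and 75.5% of its PBS UMIs were in 1 barcode each, and without the top barcode of each library its fold changes were -0.53 and -0.04. Tmeff2 was at 4.22 and 4.23 CPM, against 7.37 and 15.5, and without PBS 2 its fold change was -0.80 in both comparisons. Of its PBS UMIs 54.5% and 43.8% were in 1 barcode each, and both calls were lost without the top barcodes (-0.76 and -0.90, adjusted p = 0.73 and 0.40, edgeR). That setting takes 1 barcode per gene from each library, a larger share of the fewer PBS members. Over all genes, calls in the combination went from 80 higher and 60 lower to 90 and 40. In anti-PD-1 they went from 82 and 63 to 96 and 52. Arhgap24, a GTPase-activating protein, fell in the combination and rose in anti-PD-1, at 4.55 and 26.3 CPM, against 14.5 and 7.76. In the combination, PBS 1 and PBS 2 libraries 68.6% or more of its UMIs came from 1 barcode, and the combination's call was lost without those barcodes (-1.12, adjusted p = 0.36, edgeR). Without PBS 1 the fold change was -0.76. Cdkn2c, a cyclin-dependent kinase inhibitor, passed in anti-PD-1 alone, at 4.36 CPM with 9.29 in the combination, against 11.1 and 11.2. The lower transcripts Gm11884, Gm48099, Gm34933 and 2310039L15Rik have no function given here.

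Replication-dependent histones were lower in the combination. This list was added after values had been seen. Of 56 tested, 22 fell in the combination (background 0.455%) with a median of -0.98, and 5 in anti-PD-1 with a median of -0.18. Hist1h2ae was at 142 CPM in the combination and 261 in anti-PD-1, against 451 and 217 in PBS, so that anti-PD-1 lay between the PBS libraries. Without PBS 1 its fold change in the combination was -0.61, in place of -1.24, and that of Hist1h3f was -0.76, in place of -1.44. The same histones were lower in other cells: the log2 ratio of Hist1h2ae, combination over the PBS mean, was -1.54 in collagen-high, -1.203 in T cell and -1.77 in C1q barcodes. The part of such a library-wide shift in the result was not tested.

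Of 43 cell cycle genes none passed in the combination (median -0.16), and 3 fell in anti-PD-1 (median -0.26), namely Bub1, Hmmr and Rrm2, named after their values were seen. Top2a, the topoisomerase of dividing cells, was at 587 CPM in the combination and 548 in anti-PD-1, against 754 and 599. The summed list had a median of 2017 raw CPM in combination members and 1743 in anti-PD-1 members, against 3303 and 2030 in PBS, where PBS 1 stood above the other libraries. A thinned Mki67 UMI was found in 44.8% and 37.6% of members, against 56.3% and 48.0%.

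MHC class II genes rose in anti-PD-1, and 3 of 4 calls were lost without the immune-rich barcodes. Those barcodes were chosen in part by Cd74, H2-Aa, H2-Ab1 and H2-Eb1 themselves, so the lost calls are no independent check. Cd74, the class II chaperone, was at 16.6 CPM in the combination and 48.7 in anti-PD-1, against 9.16 and 9.54. H2-Aa, a class II chain, was at 5.59 and 24.2 CPM, against 3.24 and 9.06. The anti-PD-1 library was the high one, and 4 of 7 tested class II genes rose there (background 0.621%), with 1 in the combination (background 0.606%). Without the 10 immune-rich barcodes, the anti-PD-1 fold change of H2-Aa was 0.38 (adjusted p = 0.89, edgeR), against 2.04 with them, that of H2-Ab1 was 1.20 (adjusted p = 0.32) and that of H2-Eb1 was 0.67 (adjusted p = 0.75). Cd74 kept its call at 1.14 (adjusted p = 0.0076) in anti-PD-1 and 1.29 (adjusted p = 0.00019) in the combination. Bcl2a1b, an anti-apoptotic gene of blood cells, had an anti-PD-1 fold change of 1.70 with and -0.29 without these barcodes, and Crip1 1.78 with and 1.23 without (adjusted p = 0.43). Bcl2a1b was also at 1.07 without PBS 1 and 2.62 without PBS 2. Of the 223 Ccl22 UMIs in anti-PD-1, 160 came from 1 barcode and 222 from the immune-rich ones. Without those, 2 Ccl22 UMIs were left in the combination and 1 in anti-PD-1, against none in PBS.

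Stress and metabolic lists held few calls. Of 20 immediate early genes, Klf2 (232 CPM in the combination and 143 in anti-PD-1, against 109 and 124) and Zfp36 rose in the combination and none in anti-PD-1. Cryab rose in the combination (1.71 ± 0.23, adjusted p = 2.6e-06, edgeR) and not in anti-PD-1 (0.51 ± 0.25, adjusted p = 0.46). The anti-PD-1 library, at 31.0 CPM, lay close to PBS 2, at 30.6. After thinning, 25.4% of combination members held a Cryab UMI (19.96 to 31.5) and 10.2% of anti-PD-1 members, against 7.56% and 16%, with 1.07% or less in T cell barcodes. The call was lost with the top barcode of each library left out (2.09, adjusted p = 1.0). Of 26 hypoxia and glycolysis genes, Ndrg1 and Bnip3 rose in the combination, Ndrg1 at 97.0 CPM with 88.8 in anti-PD-1, against 57.6 and 59.8. None of 40 oxidative phosphorylation genes was called against PBS. Among 16 antioxidant and iron genes none was called. Of 18 amino acid and lipid metabolism genes 2 fell in anti-PD-1, Hmgcs1 (-0.79 ± 0.20) and Idi1 (-0.78 ± 0.20), enzymes of the sterol pathway named after their values were seen. Gadd45a, a DNA damage response gene, rose in the combination (0.94 ± 0.23). Of 4 epithelial genes that could be tested among 25 listed, none passed, and Tjp1, a junction protein, was at 70.7 and 49.4 CPM, against 66.4 and 62.9.

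**Figure D4:**
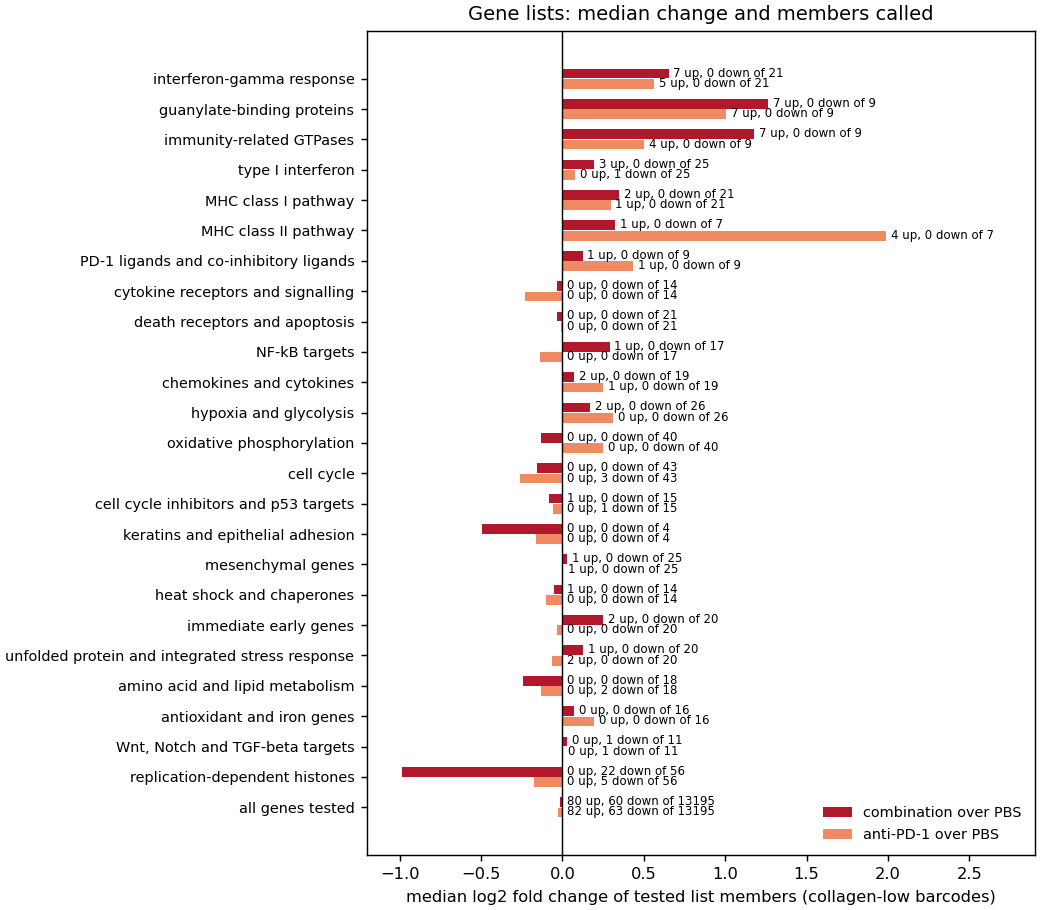
Median log2 fold change of the tested members of each gene list in collagen-low barcodes, combination over PBS (upper bar, red) and anti-PD-1 over PBS (lower bar, orange), with the number of members called higher and lower at an adjusted p of 0.05. Guanylate-binding proteins (medians 1.26 and 1.01) and immunity-related GTPases (1.18 and 0.50) stand above all genes tested (-0.01 and -0.03). Of 4 anti-PD-1 calls of MHC class II 1 was kept without immune-rich barcodes, which were chosen in part by these genes. The histones' list was added after values had been seen.

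Between the treated libraries no guanylate-binding protein or immunity-related GTPase passed the test. The comparison is of 2 libraries, not of conditions. It called 140 of 13195 genes (1.06%), 72 higher in the combination (0.546%) and 68 lower (0.515%), and DESeq2 called 3. The log2 difference of Gbp2 was 0.32 ± 0.27 (adjusted p = 0.77, edgeR) and that of Cd274 0.24 ± 0.20 (adjusted p = 0.77), which does not show equal levels. Cebpb, a transcription factor of inflammation and acute stress, was at 116 CPM in the combination and 26.8 in anti-PD-1, a log2 difference of 2.11 ± 0.23 (adjusted p = 3.2e-12). PBS lay between, at 52.7 and 28.0. Zfp36, which destabilises cytokine mRNAs, was at 27.7 and 8.59 CPM. The chemokine Ccl2 was at 133 and 73.2 CPM, and Ccl7 at 11.9 and 2.38.

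Several of these differences were seen in other barcodes of the libraries. The log2 ratio of Cebpb, combination over anti-PD-1, was 1.89 in collagen-high, 2.01 in T cell and 2.13 in C1q barcodes. Pfn1, which binds actin and was called by both tools (named after its value was seen), was at 534 CPM in the combination and 180.5 in anti-PD-1. Its ratio was 2.08 in collagen-high, 1.70 in T cell and 1.65 in C1q barcodes. For Zfp36 the ratio was 1.45, 1.23 and 1.42, and for Nos2 1.25, 1.33 and 0.88, in the same order. Gbp2 differed less, with 0.27, 0.59 and 0.32. The part of the library in these results was not tested.

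**Figure D5:**
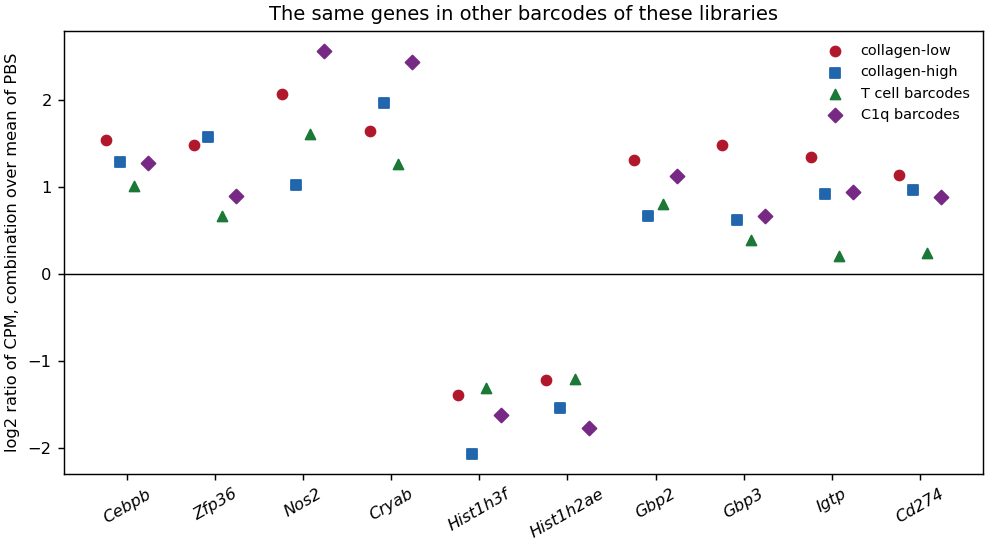
Log2 ratio of raw CPM, combination over the mean of the 2 PBS libraries, for 10 genes in members (circles), collagen-high (squares), T cell (triangles) and C1q (diamonds) barcodes. Cebpb, Zfp36, Nos2, Cryab, both histones and also Gbp2 have ratios of 1 sign in all 4 kinds of barcode. Cebpb was at 1.54, 1.29, 1.02 and 1.28. Igtp was at 1.35 and 0.92 in CD45-negative barcodes and, lower but also positive, at 0.21 in T cell barcodes.

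Members and collagen-high barcodes differed beyond collagen, given here as a description since the rule drew the boundary. H19, an imprinted non-coding RNA, was at 1.26 and 7.80 raw CPM in combination and anti-PD-1 members and 0.545 and 0.862 in PBS members, against 87.7, 99.96, 110 and 122 in the collagen-high barcodes of the same libraries. Ptn, a secreted growth factor, was at 50.1, 33.9, 86.3 and 61.2 in members, against 246, 288, 243 and 231. Fn1, the matrix protein fibronectin, was at 456, 236, 313 and 433, against 1589, 1202, 1276 and 1918. H19, Ptn and Fn1 were lower in members than in collagen-high barcodes of each library. Pdgfra, a receptor of fibroblasts, was at 35.0, 28.1, 40.5 and 39.7, against 101, 101, 136 and 132. The interferon-induced Ifit3 was at 20.8, 15.5, 13.5 and 24.1, against 109, 98.4, 119 and 134.

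Members had more RNA of dividing cells. Ube2c, a ubiquitin-conjugating enzyme of mitosis, was at 172, 116, 153 and 91.2 raw CPM in combination, anti-PD-1, PBS 1 and PBS 2 members, against 34.4, 18.6, 59.9 and 33.3 in collagen-high barcodes. Mki67, the proliferation marker, was at 142, 106, 198 and 149, against 52.6, 48.4, 99.8 and 64.8. Hmgb2, a chromatin protein of cycling cells, was at 701, 603, 925 and 720, against 293, 172, 429 and 297. All 4 libraries had more of these 3 RNAs in members. Nav2, a cytoskeletal protein, was at 97.3, 111, 81.6 and 81.2, against 17.9, 28.2, 15.1 and 14.5. Members also had more UMIs per barcode than collagen-high barcodes in each library, whose medians were 53094, 39647, 60235 and 65617.5.

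Response differences between members and collagen-high barcodes were called for 4 of 13484 genes in the combination (0.0297%), 2 higher (0.0148%) and 2 lower (0.0148%). In anti-PD-1 23 were called (0.171%), 15 higher (0.111%) and 8 lower (0.0593%). DESeq2 called 1 and 2: Cxcl9 in both, and H19 in anti-PD-1. The H19 difference was 3.77 ± 0.38 (adjusted p = 7.8e-05, edgeR), with 7.80 raw CPM in anti-PD-1 members, against 0.545 and 0.862 in PBS members. Ptn differed by -1.34 ± 0.21 (adjusted p = 0.026) in anti-PD-1, with 33.9 raw CPM in anti-PD-1 members, against 86.3 and 61.2 in PBS members, and 288 in anti-PD-1 collagen-high barcodes, against 243 and 231.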

How the data were processed

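UMIs of cells sorted from mouse MC38b tumours were counted per gene and barcode by the authors and deposited as raw count matrices of 4 libraries. Cell Ranger 3.0.2 and build mm10 are given in the submitters' processing notes, whereas the file headers name cellranger 7.1.0. The counts were not normalised before deposit. Barcodes were kept by the rule given in the report, with no doublet caller. Their UMIs were summed per library, since cells are not replicates, and tested with edgeR 4.0.16 (R 4.3.3, limma 3.58.1; TMM, filterByExpr with a minimum count of 10, robust glmQLFit) in 1 fit of 3 groups. The PBS pair gave 1 residual degree of freedom, and the median prior degrees of freedom were infinite, so that most genes were tested with a spread shared over genes. P-values were Benjamini-Hochberg adjusted over all genes tested, with a threshold of 0.05, and SE is the log2 fold change divided by the square root of F. Response differences were tested with library as a block. DESeq2 1.42.0 was an alternative, among those in the closing section. T cell barcodes had at least 2 Cd3 UMIs and C1q barcodes at least 10 C1q UMIs. Shares came from barcodes thinned to 10000 UMIs, with exact 95% intervals (scipy 1.17.1, numpy 2.4.6, pandas 2.3.3, Python 3.11.15). CPM is TMM-normalised; raw CPM is divided by the total only.

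Members, gene lists and tests were chosen with earlier results of these data known. The rule for named genes took the markers and antibody targets, the 8 largest called changes each way against PBS at 10 CPM or more, up to 4 called genes of a list (or, with none, its 2 highest), and 5 each way between treated libraries and in response differences. Other genes, among them Gbp4, Gbp6, Gbp7, Gbp8, Gbp9, Irgm1, Irgm2, Gm4951, Nlrc5, Zbp1, Irf1, Cxcl10, AA467197, Ddit3, Pfn1 and those compared with collagen-high barcodes, were named after their values were seen. Genes with near-identical copies (guanylate-binding proteins, immunity-related GTPases, Ly6 genes, histones) may share reads. Some tested genes are not reported here.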

Additional observations from a re-analysis of the deposited data

Results flagged for a closer look

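Each result here was noted because the response to treatment differed between collagen-low and collagen-high barcodes by the interaction test, on the log2 scale, at an adjusted p under 0.05 (edgeR). For the combination over PBS, Tdrd9 differed by 2.91, Cxcl9 by 2.13 and Gm11884 by -1.68. For anti-PD-1 over PBS, Cxcl9 differed by 3.76, H19 by 3.77, 1700034P13Rik by 3.15 and Cd74 by 2.75. Dnah12 differed by -5.13, Gm12648 by -2.18, Dpep1 by -1.93, Klhl13 by -1.70 and Ptn by -1.34. Without the immune-rich barcodes the Cd74 difference was 1.48 ± 0.44 (adjusted p = 0.55, edgeR) and that of Klhl13 -1.69 ± 0.33 (adjusted p = 0.05003), neither past the threshold, and the other 11 were still called. Cd74 itself was among the genes that chose the immune-rich barcodes. Il1rapl2 differed by 13.39, with 0 raw CPM in anti-PD-1 collagen-high barcodes, so that this fitted value depends on the prior count. DESeq2 called Cxcl9 in both comparisons and H19 in anti-PD-1.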

How the results depend on the processing

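No paired analysis was possible because each treated group has 1 library and PBS alone has 2 replicate numbers. Counts of called genes in collagen-low cells moved by over 1.5 times as follows. DESeq2 called 8 (combination over PBS), 7 (anti-PD-1 over PBS) and 3 (combination over anti-PD-1), in place of 140, 145 and 140. A collagen threshold of 300 raw CPM gave 10, 6 and 0 (781 at an unadjusted p under 0.05 in the last). Without barcodes shared between libraries 14, 0 and 0 were called (961 and 82 unadjusted in the last 2). Thinning to 10000 UMIs gave 24, 70 and 70. Leaving out the 10% with most UMIs gave 93 in the combination. A minimum of 20000 UMIs gave 89 in anti-PD-1 and 74 between treated libraries, where no filter on low counts gave 83.

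Response differences (4 in the combination, 23 in anti-PD-1) became 42 and 64 with no filter, 1 and 2 by DESeq2, and 55 and 45 at a threshold of 300 raw CPM. Without Ptprc UMIs and with little myeloid RNA they were 9 and 10, and without shared barcodes 0 and 0 (146 and 141 unadjusted). In the combination they were 13 at a mitochondrial maximum of 5%, 27 without the 10% with most UMIs and 9 without each gene's top barcode. In anti-PD-1 they were 10 at 20000 UMIs and 11 after thinning.

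The share of collagen-low barcodes at 300 raw CPM was 44.4% in the combination, 43.9% in anti-PD-1, 21.5% in PBS 1 and 20.7% in PBS 2. At a mitochondrial maximum of 5% it was 76.7% in anti-PD-1 and 68.6% in PBS 2.

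Log2 fold changes of called genes turned in 35 cases, 24 of them without shared barcodes, where PBS kept few UMIs. In that setting the immune marker Ccr7 was among the genes called lower in the combination. There, in the combination, Cd274 was -0.93, Ly6a -0.027, Cdh18 7.14, Hist1h3f 8.84, Tmeff2 7.44, Arhgap24 7.54, Hist1h2bh 0.56, Hist1h2ae 0.35, Irf9 -0.22, Psmb9 -0.29 and Cd74 -3.28. In anti-PD-1, Cd274 was -1.06, Cd74 -1.16, H2-Ab1 -1.21, H2-Aa -2.34, H2-Eb1 -2.17, Crip1 -3.01, Bcl2a1b -2.90, 2310039L15Rik 0.41, Cadm2 8.33, Tmeff2 7.21, Gm34933 0.72, Cdh18 7.65 and Cdkn2c 7.29. With no collagen threshold, Cxcl9 was -0.39 in the combination and -0.18 in anti-PD-1, and Arhgap24 0.33 in the combination. At a mitochondrial maximum of 5%, Tmeff2 in anti-PD-1 was 0.047 and Cxcl9, combination over anti-PD-1, 0.083. Without immune-rich barcodes, Bcl2a1b in anti-PD-1 was -0.29, and combination over anti-PD-1 was 0.57 for H2-Aa and 0.15 for Cd74. At 20000 UMIs these 2 were 0.60 and 0.15, and without Ptprc UMIs H2-Aa was 0.16. The cause was not tested. Of other alternative values of named genes, 928 counted as unchanged and 368 kept direction but lost the call. For a called gene unchanged meant the same direction and a call, and for an uncalled gene only that it stayed uncalled. With a PBS library left out it meant a shift within the standard deviation of the PBS pair. Uncalled genes could therefore turn. Pdcd1lg2 went from 0.12 to -0.77 in the combination without PBS 1. Without PBS 2, Ifngr1 went there from 0.087 to -0.092 and Ifngr2 from 0.054 to -0.039.

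Gbp2, Gbp3, Nos2 and Klf2 kept their call in 12 of 13 alternatives in the combination, and Igtp in 11 of 13 in each comparison with PBS. Other calls held less often: in the combination Bnip3 and Hes1 in 3 of 13, Irf9 and Tmeff2 in 4 of 13, Stat2, Tgtp1, Cdh18 and Cd74 in 5 of 13 and Gbp10 in 5 of 12, and in anti-PD-1 Gbp2 in 9 of 13 and Tmeff2 in 3 of 12. Without PBS 1, log2 fold changes moved by over 1.5 times for Ifi44 (0.76) in the combination, and without PBS 2 for Hes1 (-0.62) in the combination. Ccl22 had 0 UMIs in PBS 1, so that without PBS 2 it was at least 84.4-fold higher in anti-PD-1 (a floor of 3 counts in PBS 1). This bound rests on the immune-rich barcodes, which held 222 of the 223 Ccl22 UMIs in anti-PD-1. Bnip3 was 0.96 without PBS 1 and 0.39 without PBS 2. Leaving out a PBS library gives no test, and no member barcode held 2 UMIs of Krt8 and Krt18, so that alternative gave no value. Leaving out immune-rich barcodes, top barcodes or the collagen threshold was chosen after seeing the data. Top barcodes were taken from each library whatever its number of members.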
